A study of Mus musculus with 16 samples.

Results

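Pmp22, Pmp2, Prx, Ncmap, Mal, Egr2, Sox2, Erbb3 and Cdh19 are genes of Schwann cells and of the myelin that these cells make. They were chosen by name, as the rows of the deposited count table whose Ensembl mouse gene ID carries one of these symbols. All 9 were found among the 46078 genes of the table. Of these, 8 passed the filter on low counts and were tested among 15096 genes, and Pmp2, with 2 counts over 16 libraries, was not tested.

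The series asks how voluntary running bears on the repair of myelin after a toxic lesion of the mouse spinal cord. The lesions were measured by RNA sequencing in 4 groups of 4 libraries, which the labels give as Exercise at Day 10, Control at Day 10, Exercise at Day 5 and Control at Day 5. All mice were C57BL/6, aged 8 to 12 weeks, and all had been demyelinated with lysolecithin, a lipid that dissolves myelin membranes, so the controls carry the lesion too. Exercise mice had free use of a running wheel and Control mice had a locked wheel. The lesion was cut from frozen cord by laser microdissection, so each library holds every cell type of the lesion, and its RNA was amplified by the REPLI-g protocol before poly-A selection and stranded sequencing. No label ties a library to an animal of its own. The p-values thus rest on variation among libraries, part of which may be technical. Total counts per library were 9773137 to 11089749 in exercise and 10714317 to 12696777 in control at day 10, and 8125981 to 10930385 in exercise and 11204380 to 13930582 in control at day 5. Every exercise library of day 5 was shallower than every control library of that day, and exercise replicate 17 of day 10, which the authors left out of their own day 10 comparison, is kept here and its absence is reported where it changes a result. The mitochondrial ribosomal RNA mt-Rnr2 took 10.9 to 12.9% of counts in exercise and 8.05 to 10.3% in control at day 5. At day 10 it took 8.51 to 12.3% in exercise and 8.81 to 12.6% in control.

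Schwann cells are the myelinating glia of peripheral nerve, while oligodendrocytes make the myelin of the brain and spinal cord. Schwann cells are also known to appear in demyelinated spinal cord and to wrap central axons there. In nerve, neuregulin-1 on the axon signals through ERBB3 and its partner ERBB2, and SOX10 and POU3F1 switch on the transcription factor EGR2 (KROX20), which drives the genes of peripheral myelin. SOX2 marks immature Schwann cells that have not begun to myelinate. Several of the 9 genes are not restricted to Schwann cells: Mal and Erbb3 are also used by oligodendrocytes, Sox2 by astrocytes and glial precursors, Egr2 by macrophages, and Pmp22 by many tissues.

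Promoter sequences are shown for the genes whose level differed between the days and for which RefSeq's table on GRCm38.p6 held an entry, since these are the genes the results below turn on. The table gives 250 bases before and 50 after each transcription start, and 6 of the 9 genes matched it by symbol (Pmp22, Prx, Ncmap, Mal, Egr2 and Sox2), with 14 entries. Both strands were searched for GCGTGGG, a core site of the EGR family, for ACAAAG, a core site of the SOX family, and for a form of the CArG box bound by serum response factor, which reads CCATAT, any 2 bases, then GG. The sequences run 5′ to 3′ on the strand of the gene, and capitals mark a match.
Egr2: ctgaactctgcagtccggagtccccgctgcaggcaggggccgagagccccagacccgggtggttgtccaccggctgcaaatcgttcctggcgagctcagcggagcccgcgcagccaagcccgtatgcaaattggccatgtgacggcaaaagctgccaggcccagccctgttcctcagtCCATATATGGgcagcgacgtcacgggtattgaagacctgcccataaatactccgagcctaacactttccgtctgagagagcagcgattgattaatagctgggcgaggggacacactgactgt
Sox2: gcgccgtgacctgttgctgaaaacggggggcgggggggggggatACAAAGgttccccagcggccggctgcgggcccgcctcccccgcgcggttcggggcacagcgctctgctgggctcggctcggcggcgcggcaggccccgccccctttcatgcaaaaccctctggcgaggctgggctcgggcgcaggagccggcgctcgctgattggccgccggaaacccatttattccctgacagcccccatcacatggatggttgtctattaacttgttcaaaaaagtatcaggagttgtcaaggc
Mal: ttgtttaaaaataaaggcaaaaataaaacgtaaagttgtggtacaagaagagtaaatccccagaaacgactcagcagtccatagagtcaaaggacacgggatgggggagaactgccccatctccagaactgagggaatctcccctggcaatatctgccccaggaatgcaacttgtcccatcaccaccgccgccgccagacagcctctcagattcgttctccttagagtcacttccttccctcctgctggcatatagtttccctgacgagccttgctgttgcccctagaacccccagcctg
The Egr2 sequence lies at chr10:67537619-67537918 on the plus strand and holds 1 CArG match, in a stretch that 3 of the 5 overlapping or neighbouring Egr2 entries share. The Sox2 sequence lies at chr3:34649745-34650044 on the plus strand and holds 1 SOX match. The Mal sequence lies at chr2:127656646-127656945 on the minus strand and holds none of the 3 motifs. GCGTGGG was found in the entry of Prx and in 1 of 2 entries of Ncmap, both of which stood near 0 in these libraries. Among all 32851 promoters of the table, 5.04% hold GCGTGGG, 18.7% hold ACAAAG and 0.502% hold the CArG form.

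The 8 tested genes fell into a high, a middle and a near-zero class when their levels were set per length, as CPM (counts scaled to a common library size by TMM) per kilobase of exon, averaged over all 16 libraries. Pmp22, a tetraspan protein of compact peripheral myelin, averaged 135 CPM per kilobase and Mal, a lipid-raft membrane protein of myelin, averaged 113. Their ranges over the libraries, 103 to 185 for Pmp22 and 64.3 to 229 for Mal, overlapped. Erbb3, the neuregulin receptor, followed at 29.0 CPM per kilobase. Sox2 (7.03), Cdh19 (6.42), a cadherin of the Schwann cell lineage, and Egr2 (3.76) stood close to the median of all tested genes, at the 63.9th, 61.9th and 48.5th percentile, and their ranges overlapped. Ncmap, a membrane protein of non-compact myelin, averaged 0.372 CPM per kilobase, and Prx (periaxin), a scaffold of the Schwann cell surface, averaged 0.175. These were the lowest of the 8.

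**Figure D1:**
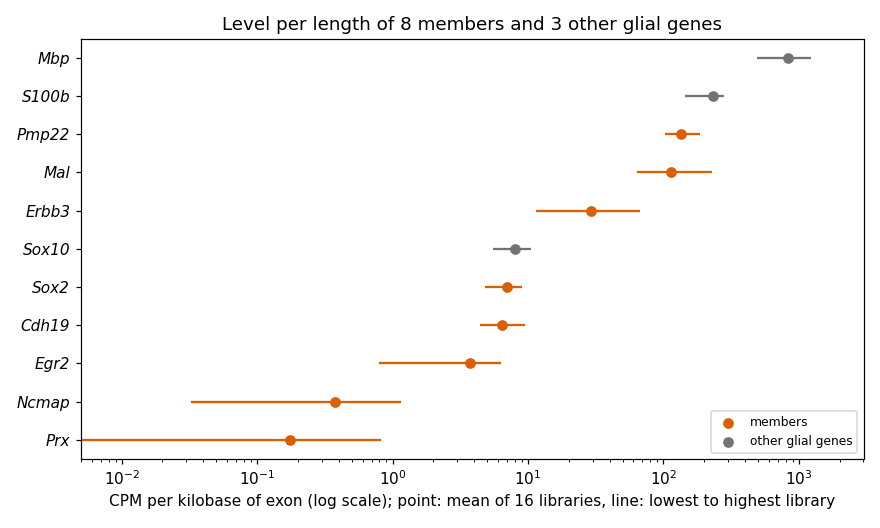
Level per length of the 8 tested genes (orange) and of 3 other glial genes (grey), in CPM per kilobase of exon on a log axis. Points are means over 16 libraries and lines run from the lowest to the highest library, with lines that reach 0 leaving the axis at the left; Pmp22 and Mal averaged 135 and 113, while Ncmap and Prx averaged under 1.

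Mbp, which is abundant in central myelin and also used in peripheral myelin, averaged 838 CPM per kilobase. Sox10, which Schwann cells and oligodendrocytes share, averaged 7.95. Prx and Ncmap, which are largely restricted to peripheral myelin, thus stood near 0 beside Mbp. In bulk tissue such as this, fewer cells of a type and less RNA per cell cannot be told apart.

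Pmp2 (ENSMUSG00000052468, chromosome 3, 10179851 to 10183929), a fatty acid binding protein of compact myelin, is the 1 member whose level these counts leave unknown. Of its 1408 exon bases, 86.9% also belong to exons of Gm37389 on the same strand, and reads that fall in both genes are not counted under the settings in the file header, so 184 bases remained. It had 0 counts in all 8 exercise libraries and 1 count each in control replicate 2 at day 10 and control replicate 6 at day 5. A count of 0 allows up to 0.0712 CPM over the exercise libraries of day 10 and up to 0.0746 CPM over those of day 5. These limits come from 3 counts per group and cover counting error only. They hold for reads that could be counted, on the 184 bases left, and do not bound all Pmp2 RNA.

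Between day 5 and day 10 the lesion gained Erbb3 RNA in exercise and in control mice, Mal RNA in control mice and Egr2 RNA in exercise mice, and lost Sox2 RNA in exercise mice. In the other arm Mal, Egr2 and Sox2 differed in the same direction without passing. Their day differences were not shown to differ between the arms. The adjusted p of edgeR's interaction term was 0.815 for Mal, 0.952 for Egr2 and 0.583 for Sox2. None of the 8 tested genes differed between exercise and control at either day past an adjusted p of 0.05. The nearest at day 10 were Cdh19 and Sox2, each with a lower mean in exercise lesions. Values below are given in CPM, with the libraries of each group in the order of their label numbers (exercise 13, 17, 18 and 19 and control 2, 3, 4 and 5 at day 10, exercise 1, 2, 7 and 12 and control 1, 2, 5 and 6 at day 5).

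**Figure D2:**
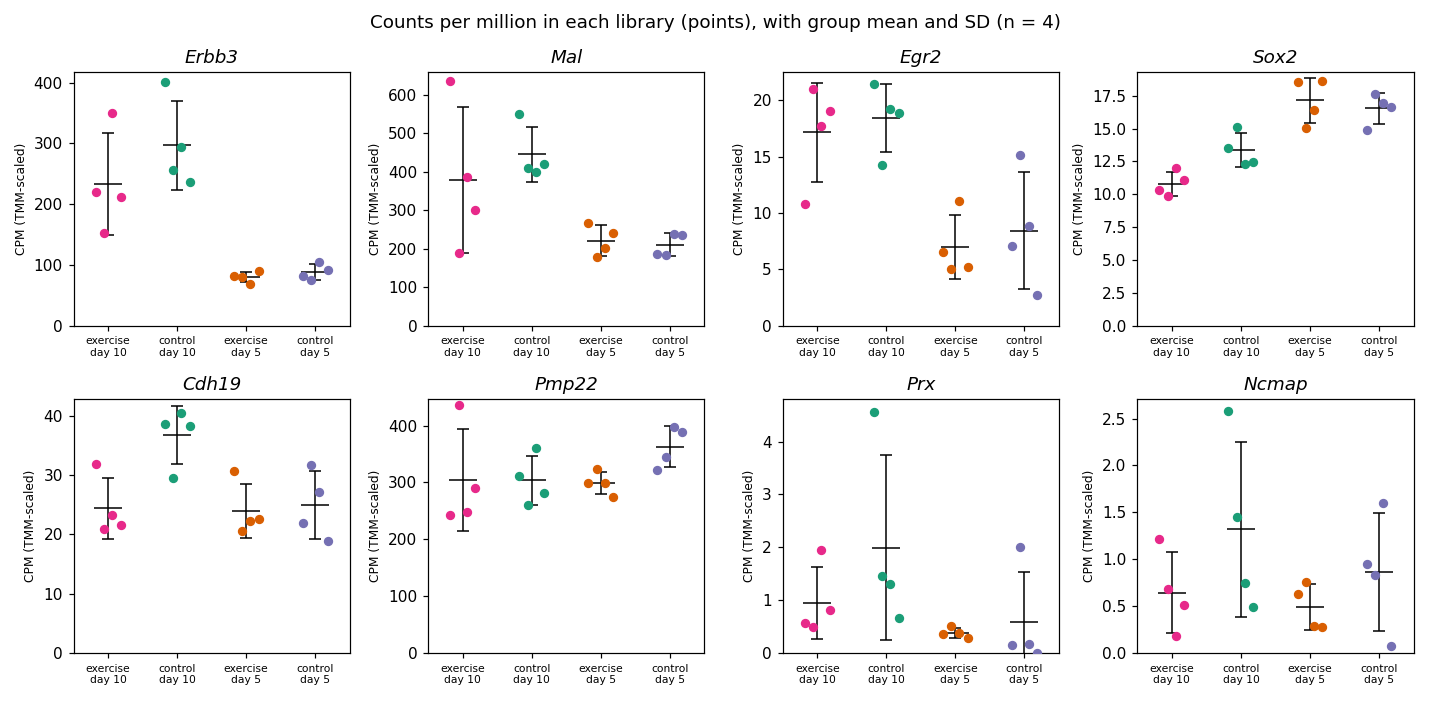
CPM (TMM-scaled, linear axes from 0) of the 8 tested genes in each library, with group mean and SD (n = 4); bars that would pass below 0 are cut at the axis. Erbb3 is higher in every day 10 library than in every day 5 library, and Sox2 is lower in every exercise library of day 10 than in any other library.

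Among the structural genes, Mal (ENSMUSG00000027375, chromosome 2, 127633226 to 127656695) was higher at day 10. It stood at 637, 190, 386 and 301 CPM in exercise lesions and at 550, 411, 399 and 420 CPM in control lesions at day 10. At day 5 it stood at 266, 179, 201 and 240 CPM in exercise lesions and at 187, 183, 238 and 235 CPM in control lesions. In exercise mice replicate 17 of day 10 lay among the day 5 values and replicate 13 was the highest of all 16, while in control mice all day 10 libraries lay above all day 5 libraries, as 9.33% of all genes did. In exercise lesions Mal averaged 378 ± 190 CPM at day 10 and 221 ± 39.1 CPM at day 5 (SD, n = 4 each; log2 0.77, SE 0.25). Its adjusted p was 0.0615 by the quasi-likelihood test of edgeR with Benjamini-Hochberg adjustment, which gave all adjusted p-values below unless another tool is named. Without exercise replicate 17 that difference was 0.995 with an adjusted p of 0.00474 by edgeR. In control lesions Mal rose to 445 ± 70.7 CPM at day 10, against 211 ± 29.9 CPM at day 5 (SD, n = 4 each), which is 2.11-fold (log2 1.08, SE 0.25, adjusted p 0.0101 by edgeR). Exercise and control differed by -0.23 at day 10 (95% interval -0.76 to 0.30) and by 0.07 at day 5 (-0.46 to 0.60) on the log2 scale, and neither difference passed. The day 10 difference was -0.012 without exercise replicate 17 and -0.62 without exercise replicate 13.

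Pmp22 (ENSMUSG00000018217, chromosome 11, 63128982 to 63159547), the dosage-sensitive gene of inherited peripheral neuropathy, was the steadiest of the abundant members. It stood at 242, 435, 248 and 291 CPM in exercise and at 311, 260, 361 and 282 CPM in control lesions at day 10. The values of day 5 were 298, 323, 300 and 275 CPM in exercise and at 322, 345, 397 and 388 CPM in control lesions. Exercise replicate 17 of day 10 was the highest of all 16 libraries for Pmp22, while it was the lowest of the 8 day 10 libraries for Mal. At day 5 only exercise replicate 2 reached into the control range. The fitted difference between exercise and control was 0.0017 at day 10 (95% interval -0.32 to 0.33) and -0.28 at day 5 (-0.61 to 0.05, adjusted p 0.559 by edgeR). Between the days it was 0.02 in exercise (-0.30 to 0.35) and -0.26 in control (-0.58 to 0.07). Without exercise replicate 17 the difference at day 10 was -0.22 (adjusted p 0.516 by edgeR) and the day difference in exercise was -0.20 (adjusted p 0.295).

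Prx (ENSMUSG00000053198, chromosome 7, 27499324 to 27520214) had 182 counts in all, and Ncmap (ENSMUSG00000043924, chromosome 4, 135369576 to 135398227) had 151. Prx stood at 0.559, 0.488, 1.95 and 0.812 CPM in exercise and at 4.56, 1.45, 1.3 and 0.655 CPM in control lesions at day 10. At day 5 it stood at 0.361, 0.507, 0.386 and 0.276 CPM in exercise and at 0.159, 2, 0.178 and 0 CPM in control lesions. Control replicate 2 was the highest library of its group at each day, and all groups overlapped. The day difference in control was 1.77 (SE 0.85, adjusted p 0.188 by edgeR), and it was 4.08 with an adjusted p of 0.00902 without control replicate 2 of day 5, and 0.96 with an adjusted p of 0.565 without control replicate 2 of day 10. Exercise and control differed by -1.06 at day 10 (95% interval -2.78 to 0.66) and by -0.60 at day 5 (-2.62 to 1.42). Both intervals include 0 and reach further on the side of lower values in exercise, but this depends on control replicate 2 of each day. Without it the difference was 1.70 at day 5 and -0.25 at day 10. At day 5 all exercise libraries lay above the other control libraries.

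Ncmap averaged 0.645 ± 0.432 CPM in exercise and 1.32 ± 0.936 CPM in control at day 10, and 0.489 ± 0.244 CPM in exercise and 0.866 ± 0.628 CPM in control at day 5 (SD, n = 4 each). Its groups overlapped in every comparison, and the widest span within a group was 0.491 to 2.58 CPM in control at day 10. The fitted difference between exercise and control was -1.03 at day 10 (95% interval -2.51 to 0.45) and -0.82 at day 5 (-2.39 to 0.75), and between the days it was 0.41 in exercise (-1.20 to 2.03) and 0.63 in control (-0.81 to 2.06).

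**Figure D3:**
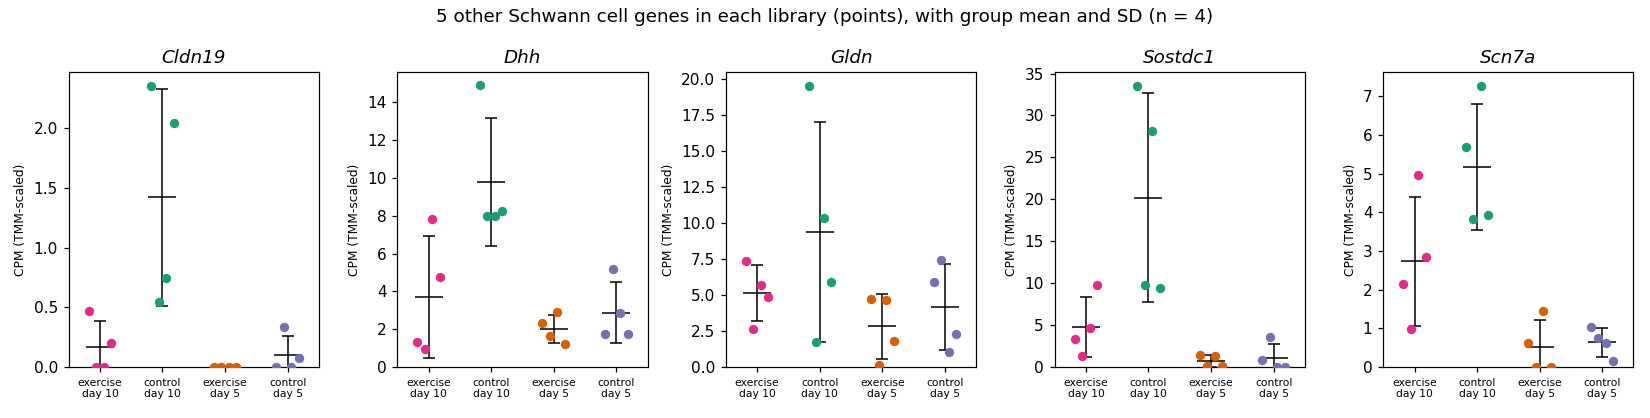
CPM (TMM-scaled, linear axes from 0) of 5 other Schwann cell genes (Cldn19, Dhh, Gldn, Sostdc1 and Scn7a) in each library, with group mean and SD (n = 4). The highest value of every panel is in a control library of day 10, and control replicate 2 stands at 14.9 CPM for Dhh. Cldn19, Dhh and Gldn were picked for plotting after their values were seen. Other genes of the same lists, such as Drp2, Gjb1 and Moxd1, were highest in exercise replicate 18 of day 10.

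Of the transcription factors, Egr2 (ENSMUSG00000037868, chromosome 10, 67535475 to 67542188) was higher at day 10. It stood at 10.8, 21, 17.7 and 19.1 CPM in exercise and at 21.4, 14.3, 19.3 and 18.9 CPM in control lesions at day 10. At day 5 it stood at 6.59, 5.07, 11.1 and 5.25 CPM in exercise and at 7.08, 15.2, 8.82 and 2.69 CPM in control lesions. In each arm 1 day 5 library reached into the day 10 range, exercise replicate 7 and control replicate 2. In exercise lesions Egr2 rose to 17.1 ± 4.43 CPM at day 10, against 7 ± 2.81 CPM at day 5 (SD, n = 4 each), which is 2.44-fold (log2 1.29, SE 0.37, adjusted p 0.0356 by edgeR). Leaving out 1 library at a time ended that call in 6 of 8 fits (without exercise replicates 1, 2 or 12 of day 5, or 17, 18 or 19 of day 10), with adjusted p-values over the 8 of 0.0236 to 0.100 by edgeR. In control lesions it averaged 18.5 ± 3.01 CPM at day 10 and 8.44 ± 5.17 CPM at day 5 (log2 1.14, SE 0.37, adjusted p 0.05001 by edgeR, just above the threshold), and without control replicate 2 of day 5 the difference was 1.59 with an adjusted p of 0.0100. Exercise and control differed by -0.11 at day 10 (95% interval -0.86 to 0.64) and by -0.26 at day 5 (-1.05 to 0.53).

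Sox2 (ENSMUSG00000074637, chromosome 3, 34650405 to 34652461) moved the other way. It stood at 10.3, 9.86, 12 and 11.1 CPM in exercise and at 13.5, 15.1, 12.3 and 12.4 CPM in control lesions at day 10. The values of day 5 were 18.5, 15.1, 16.4 and 18.6 CPM in exercise and at 14.9, 17.7, 16.9 and 16.6 CPM in control lesions. In exercise mice no day 10 library reached the day 5 range, as for 7.09% of all genes, whereas in control mice replicate 3 of day 10 did. In exercise lesions Sox2 fell to 10.8 ± 0.92 CPM at day 10, against 17.1 ± 1.71 CPM at day 5 (SD, n = 4 each), which is 1.59-fold lower (log2 -0.67, SE 0.14, adjusted p 0.00551 by edgeR). The call held without each library in turn, at adjusted p-values of 0.00763 to 0.0197 by edgeR. In control lesions it averaged 13.3 ± 1.29 CPM at day 10 and 16.5 ± 1.19 CPM at day 5 (log2 -0.31, SE 0.14, adjusted p 0.153 by edgeR). At day 10 all exercise libraries lay below all control libraries (log2 -0.30, SE 0.14, unadjusted p 0.0436, adjusted p 0.374 by edgeR), as 2.58% of all genes did, and at day 5 the difference was 0.05 (95% interval -0.23 to 0.34). The difference between the 2 exercise effects was -0.36 (95% interval -0.77 to 0.05, adjusted p 0.583 by edgeR's interaction term), so the larger drop in exercise is not shown to differ from that in control.

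Of the surface genes, Erbb3 (ENSMUSG00000018166, chromosome 10, 128567523 to 128589652) had the largest change between the days among the members that passed. It stood at 220, 152, 350 and 211 CPM in exercise and at 401, 256, 295 and 236 CPM in control lesions at day 10. At day 5 it stood at 82.1, 80.3, 68.7 and 89.8 CPM in exercise and at 82.4, 75.3, 104 and 91.7 CPM in control lesions. In both arms every day 10 library lay above every day 5 library, as for 7% of all genes in exercise and 9.33% in control, and exercise replicate 17 was the lowest of the day 10 libraries. In exercise lesions Erbb3 rose to 233 ± 83.5 CPM at day 10, against 80.2 ± 8.73 CPM at day 5 (SD, n = 4 each), which is 2.91-fold (log2 1.54, SE 0.21, adjusted p 0.000267 by edgeR). In control lesions it rose to 297 ± 73.5 CPM at day 10, against 88.4 ± 12.5 CPM at day 5, which is 3.36-fold (log2 1.75, SE 0.21, adjusted p 9.87e-05 by edgeR). Both calls held without each library in turn. Exercise and control differed by -0.35 at day 10 (95% interval -0.78 to 0.08, adjusted p 0.490 by edgeR) and by -0.14 at day 5 (-0.57 to 0.29).

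Cdh19 (ENSMUSG00000047216, chromosome 1, 110888326 to 110977584) had the smallest p among the members between exercise and control. It stood at 31.9, 20.9, 23.2 and 21.5 CPM in exercise and at 38.6, 29.5, 40.5 and 38.3 CPM in control lesions at day 10. The values of day 5 were 30.6, 20.5, 22.2 and 22.6 CPM in exercise and at 21.9, 31.7, 27.2 and 18.8 CPM in control lesions. At day 10 exercise replicate 13 lay above control replicate 3, and the other 3 exercise libraries lay below all controls. The log2 difference at day 10 was -0.59 (SE 0.18, 95% interval -0.97 to -0.21), a 1.51-fold lower mean in exercise, with an unadjusted p of 0.00463 and an adjusted p of 0.195 by edgeR. It failed the correction and ranged from -0.76 to -0.52 when 1 library at a time was left out. The day difference was 0.02 in exercise (-0.37 to 0.41) and 0.56 in control (0.18 to 0.94, adjusted p 0.0518 by edgeR). In control it passed without replicate 2 of day 5 (0.70, adjusted p 0.0300) or replicate 3 of day 10 (0.66, adjusted p 0.0414). The difference between the 2 exercise effects was -0.54 (-1.08 to 0.01, unadjusted p 0.0527, adjusted p 0.549).

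**Figure D4:**
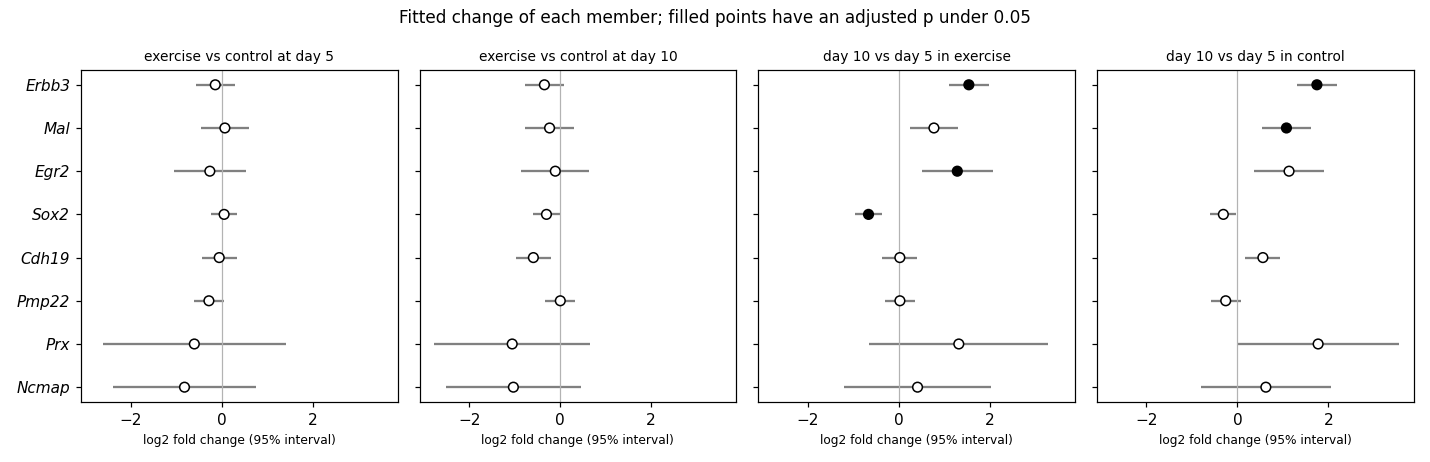
Fitted log2 fold change (points) and 95% interval (lines) of the 8 tested genes in 4 comparisons, from edgeR; filled points passed an adjusted p of 0.05. No point is filled for exercise against control, and the intervals of Prx and Ncmap are several times as wide as those of Sox2 and Cdh19.

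Counted over the members, 3 of 8 passed between day 10 and day 5 in exercise lesions (Erbb3 and Egr2 higher, Sox2 lower), where 10.1% of all 15096 genes passed, 5.17% higher and 4.9% lower. In control lesions 2 of 8 passed (Erbb3 and Mal, both higher), where 12.3% of all genes passed, 5.66% higher and 6.64% lower. DESeq2 called 4 members there (and 2370 of 26253 genes), limma-voom 5 (1998 of 15096 genes), and edgeR without control replicate 2 of day 5 also 5 (1345 of 15405 genes). The members' median log2 difference between the days was 0.59 in exercise and 0.85 in control, beside 0.01 over all genes in each. Between exercise and control at day 10, 0 of 8 passed by edgeR, where 0.192% of all genes did (0.106% higher and 0.0861% lower). There 2 members, Cdh19 and Sox2, had an unadjusted p under 0.05, as did 1935 of all 15096 genes. At day 5, 0 of 8 passed, where 0% of all genes did, and 0 members but 1513 of all genes had an unadjusted p under 0.05. DESeq2 and limma-voom also called 0 members at each day. Exercise and control libraries of day 5 overlapped for all 8 members, while they did not for 3.33% of all genes (exercise higher) and 3.97% (exercise lower). At day 10 Sox2 alone among the 8 did not overlap, with exercise lower, as for 2.58% of all genes, while 3.3% of all genes did not overlap with exercise higher. The members' median log2 difference between exercise and control was -0.33 at day 10, with 7 of 8 negative, and -0.20 at day 5, with 6 of 8 negative, beside 0.01 over all genes at each day. Of all genes, 52.1% were positive at day 10 and 51.6% at day 5. The comparisons of the days and of the arms share libraries. The interaction called 0 members and 0 genes by edgeR, with 0 members and 1376 genes at an unadjusted p under 0.05, and DESeq2 called 9 genes. In the authors' deposited table for each day, 0 of the members passed. Its smallest adjusted p among those given one was 0.116 for Pmp22 at day 5 (log2 -0.28) and 0.196 for Cdh19 at day 10 (log2 -0.53, from 7 libraries).

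Of 20 other listed genes of peripheral myelin, many of which oligodendrocytes share, 19 were tested. In exercise lesions 2 rose, Lpar1 (0.75) and Cnp (0.67), and 0 fell (median log2 0.26). In control lesions 6 rose and 0 fell (median log2 0.68), among them Lpar1 (1.15), Mbp (0.90), Cnp (0.91), Pllp (0.68) and Dhh (1.77). Between exercise and control 0 passed by edgeR at day 10, with 17 of 19 negative (median -0.33) and 5 at an unadjusted p under 0.05, and 0 passed at day 5 (median -0.07), with 0 at an unadjusted p under 0.05. Over all genes tested these medians were 0.01 in each comparison, and 52.1% of genes were positive between exercise and control at day 10. Between the days 5.17% of all genes rose and 4.9% fell in exercise, and 5.66% rose and 6.64% fell in control. These shares apply to every list below. Dhh, the Schwann cell ligand of the hedgehog family, stood at 1.3, 0.976, 7.8 and 4.77 CPM in exercise and at 14.9, 8, 8.01 and 8.27 CPM in control lesions at day 10. Cldn19, a tight-junction protein of peripheral myelin, stood at 0.466, 0, 0 and 0.203 CPM in exercise and at 2.35, 0.545, 0.745 and 2.05 CPM in control at day 10. With 82 counts in all it did not pass the filter and was not tested. Dhh, Pllp, Cldn19 and Gldn were picked for naming or plotting after their values were seen.

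Among 16 tested genes of Schwann cell lineage and identity, 0 rose and 1 fell in exercise lesions (median 0.11), and 6 rose and 0 fell in control lesions (median 0.49). Not all of these are restricted to Schwann cells. Sox10 and Gpr17 are also on the list of oligodendrocyte precursors and S100b is on that of astrocytes. The part of other cells in these results was not tested. The gene that fell in exercise lesions was Fabp7 (-0.54), a marker of glial precursors. Sostdc1, a secreted inhibitor found in Schwann cells, differed between the days by 2.55 in exercise lesions (adjusted p 0.120 by edgeR). In control lesions it rose to 20.2 ± 12.4 CPM at day 10, against 1.09 ± 1.7 CPM at day 5 (SD, n = 4), a log2 difference of 4.21 with an adjusted p of 0.00927 by edgeR. Scn7a, a sodium channel subunit of non-myelinating Schwann cells, differed by 2.33 in exercise lesions (adjusted p 0.0575 by edgeR). In control lesions it rose to 5.18 ± 1.63 CPM at day 10, against 0.638 ± 0.371 CPM at day 5 (log2 3.01, adjusted p 0.0109 by edgeR). Kcna1 (1.33) and Plekha4 (1.83) also rose in control lesions, as did Foxd3 (2.64) and Ednrb (0.56), which were named after their values were seen. Between exercise and control 0 of 16 passed by edgeR at day 10 (median -0.42, 13 negative, 6 at an unadjusted p under 0.05) and 0 at day 5 (median -0.0022, 1 at an unadjusted p under 0.05). Sox10 and S100b did not pass in any comparison, and Sox10 differed by -0.0041 between exercise and control at day 10 (95% interval -0.44 to 0.43).

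Around Egr2, 19 of 21 listed regulators and partners were tested, and 1 rose and 2 fell in exercise lesions (median 0.12) while 5 rose and 2 fell in control lesions (median 0.28). Egr1, a sister zinc-finger factor, rose in both arms (1.01 in exercise and 1.20 in control), and Jun, which opposes EGR2 in Schwann cells, fell in both (-0.51 in exercise and -0.46 in control). Pou3f1, which acts before Egr2 in the lineage, rose to 5.54 ± 2.04 CPM at day 10 in control, against 2.04 ± 0.42 CPM at day 5 (SD, n = 4; log2 1.44, adjusted p 0.0266 by edgeR). Id2 (-0.51) fell in exercise and Yap1 (0.63) rose in control. Between exercise and control 0 of 19 passed by edgeR at day 10 (median -0.12, 3 at an unadjusted p under 0.05) and at day 5 (median -0.04, 0 at an unadjusted p under 0.05).

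Around Erbb3, 17 of 18 listed ligands, partner receptors, proteases and adaptors were tested, with 3 higher and 2 lower at day 10 in exercise lesions (median 0.15) and 4 higher and 0 lower in control lesions (median 0.22). The related receptor Erbb4 rose in control to 17 ± 4.41 CPM, against 6.63 ± 2.07 CPM at day 5 (SD, n = 4; log2 1.36, adjusted p 0.000913 by edgeR). The adaptor Gab1 (0.52 in exercise and 0.77 in control), the neuregulin-cleaving protease Bace1 (0.54 and 0.68) and the receptor-binding scaffold Erbin (0.37 and 0.32) rose in both arms. The ligand genes Nrg3 (-2.77) and Nrg1 (-1.45, named after its value was seen) fell in exercise lesions. Nrg3 had 139 counts in all, and in exercise averaged 0.278 CPM at day 10 and 2 CPM at day 5. In control lesions of day 5 it already stood at 0.239, 0.333, 0.267 and 0.291 CPM. Erbb2, the partner that ERBB3 needs for its kinase activity, ran from 1.38 to 4.63 CPM over the libraries and did not pass. Between exercise and control 0 of 17 passed by edgeR at day 10 (median -0.14) and at day 5 (median -0.04), with 4 at an unadjusted p under 0.05 at each day.

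Genes listed for injured and repairing Schwann cells fell or did not pass. Among them, Gfap is also on the list of astrocytes and Olig1 on that of oligodendrocyte precursors. Of 16 tested, 0 rose and 5 fell in exercise lesions (median -0.47), and 0 rose and 4 fell in control lesions (median -0.04). Gap43, a growth-associated membrane protein (-0.83 in exercise and -0.91 in control), and Ccl2, a monocyte chemokine (-1.73 and -0.90), fell in both arms with Jun, while Bdnf (-2.18) fell in exercise and Lif (-1.24) in control. Of 17 basal lamina and adhesion genes, 1 rose and 0 fell in exercise (Sgce 0.34, which is also the median). In control 3 rose and 2 fell (median 0.48), among them Nid1 (1.63) and Dag1 (0.48) higher and the laminin receptor genes Itgb1 (-0.49) and Itga6 (-0.46) lower. In both lists 0 genes passed by edgeR between exercise and control at day 10 (medians -0.18 for repair and -0.17 for basal lamina genes, with 3 and 2 at an unadjusted p under 0.05) and at day 5 (medians 0.14 and -0.03, with 0 and 1).

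Markers of some other cell types also differed between the days, where 5.17% of all genes rose and 4.9% fell in exercise. In control 5.66% of all genes rose and 6.64% fell. The summed level of 16 markers of mature oligodendrocytes was 12583.5 to 29106.5 CPM in exercise and 25258 to 28556 CPM in control at day 10, and 12546 to 17640 CPM in exercise and 11347 to 15470 CPM in control at day 5. Of the 16, 4 rose in exercise (median 0.45) and 9 in control (median 0.89), 0 fell, and 0 passed between exercise and control (median -0.38 at day 10 and 0.08 at day 5). Tspan2 (1.75 in exercise and 2.36 in control) and Opalin (1.40 and 1.93), both of maturing oligodendrocytes, had the smallest p. Exercise replicates 17 and 19 of day 10, with sums of 12583.5 and 16495 CPM, lay within the day 5 range of these markers. The part of oligodendrocytes in the results for Mal and Erbb3 was not tested. The sum of 12 markers of oligodendrocyte precursors was 1412 to 1843 CPM in exercise and 1556 to 1858 CPM in control at day 10, and 1254 to 1542 CPM in exercise and 1357 to 1596 CPM in control at day 5. Bcan (0.66 in exercise and 1.16 in control) and Pdgfra (0.56 and 0.38) were the 2 that rose in each arm.

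**Figure D5:**
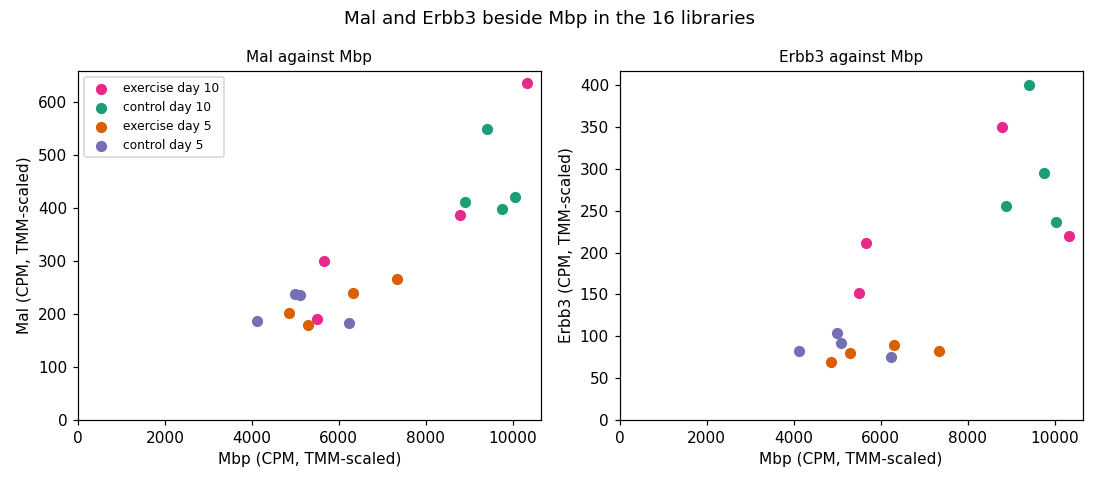
Mal (left) and Erbb3 (right) against Mbp in the 16 libraries, in CPM on linear axes from 0, with 1 colour per group. Exercise replicate 13 of day 10 is the highest library for both Mal and Mbp, while exercise replicates 17 and 19 of day 10, whose Mbp lies within the day 5 range, have 152 and 211 CPM of Erbb3, above every day 5 library.

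The sum of 13 macrophage and microglial markers, which bears on Egr2, was 7446 to 9753 CPM in exercise and 7682 to 9063 CPM in control at day 10, and 9838 to 14348 CPM in exercise and 8761 to 14556 CPM in control at day 5. Most of this sum was 1 gene, Lyz2. Its level was 4601 to 6571 CPM in exercise and 5365 to 6546 CPM in control at day 10. At day 5 it was 6928 to 11505 CPM in exercise and 6317 to 11794 CPM in control. In exercise 5 of the 13 rose and 4 fell, and in control 2 rose and 4 fell. Csf1r (1.01 in exercise and 0.74 in control) and Arg1 (-3.03 and -3.27) had the smallest p, and at day 10 Itgam was 2.03-fold higher in exercise (adjusted p 0.0424 by edgeR), with its highest value, 181 CPM, in replicate 17. The sum of 12 fibroblast and meningeal markers was 1706 to 5007 CPM in exercise and 4216 to 5549 CPM in control at day 10, and 1721 to 3009 CPM in exercise and 705 to 3019 CPM in control at day 5. In exercise 0 of these passed, in control Igf2 (3.64), Ptgds (2.50) and Slc6a13 (2.20) rose, and Igf2 was lower in exercise than in control at day 10 (-3.04, adjusted p 0.0480 by edgeR). The calls of Itgam and Igf2 at day 10 were lost without exercise replicate 17 or 19 or control replicate 2 or 3, where 0 genes passed by edgeR. The sum of 12 astrocyte markers, which bears on Sox2, was 5167 to 7573 CPM in exercise and 6994 to 8381 CPM in control at day 10, and 4217 to 7134 CPM in exercise and 3609 to 6479 CPM in control at day 5. Gfap made the largest part of it. Of the 12 astrocyte markers, 2 rose and 1 fell in exercise, and 6 rose in control. The part of these cells in the results for Egr2, Sox2 and Prx was not tested.

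Of 10 endothelial markers 4 fell in exercise, led by Emcn (-1.22), and 0 passed in control. Of 13 neuronal markers 5 fell in exercise and 3 in control, led by Stmn2 (-1.74 and -1.30). Of 5 tested markers of sensory neurons, whose axons run in peripheral nerve and spinal roots, Prph (-2.11) and Calca (-3.13) fell in exercise and 0 passed in control, and Scn10a had 0 counts in all 4 groups. None of the 3 tested ependymal and 3 tested lymphocyte markers passed by edgeR in any comparison, and 0 of 7 skeletal muscle markers had enough counts to be tested. Except for Itgam and Igf2, 0 markers of the cell type lists passed by edgeR between exercise and control. At day 10 the lists held 0 (neurons) to 7 (endothelium) markers at an unadjusted p under 0.05, and at day 5 up to 6 (neurons). Of all 15096 genes, 1935 had such a p at day 10 and 1513 at day 5. Lists of other cells also leaned to lower values in exercise at day 10. Negative were 14 of 16 mature oligodendrocyte, 11 of 12 astrocyte, 9 of 10 endothelial and 8 of 12 fibroblast markers. In contrast, 10 of 13 macrophage and 4 of 5 sensory neuron markers were positive.

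Over the 16 libraries, genes with a profile like that of Mal were Ano4 (Pearson r 0.96 on log2 CPM, and 0.89 after the group means were removed) and Ptprd (0.95, and 0.87). Erbb3 was nearest to Anks1b (0.97, and 0.79 with group means removed), Bach2 (0.96) and Tspan2 (0.95). Egr2 was nearest to Creb3l2, Lox and Il13ra1 (0.89 to 0.90), Sox2 to Ezr (0.90, but 0.37 with group means removed), Eps8 and Coprs, and Pmp22 to Ppp1r14b, Ppp1cc and Ripk2 (0.88 to 0.91). Prx was nearest to Fras1 (0.90), Tnks1bp1 and Plat, Cdh19 to Stx6 (0.85), Itgb8 and Lipt1, and Ncmap to Zfp24 (0.80), Angptl1 and Ptgr2. Among the members themselves, Mal and Erbb3 correlated at 0.85 (0.58 with group means removed), Prx and Egr2 at 0.77 (0.61), and Pmp22 and Mal at -0.56 (-0.63). These values describe 16 libraries that share their depth, amplification and cell mixture, and the genes were picked among the highest of 15096.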

How the data were processed

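RNA sequencing was run on 16 libraries of laser-microdissected, lysolecithin-demyelinated mouse spinal cord, 4 per group. The tools named in the submitters' processing notes are TopHat2 2.0.10, Bowtie 1.1.2 and FastQC 0.11.4, with the build GRCm38. Per the file headers, featureCounts 1.5.0-p1 made the deposited raw counts per Ensembl gene by strand, with the gene length in bases beside them. The authors also deposited comparison tables for each day, whose log2 fold changes, p-values and adjusted p-values (DESeq2 1.12.4, per the submitters' processing notes) are quoted as theirs, while their filtered, normalized and variance-stabilised tables were not used.

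The counts went through edgeR 4.0.16 (R 4.3.3), with filterByExpr (minimum count 10, minimum total 15), TMM, and a robust quasi-likelihood fit with 1 mean per group over all 16 libraries (12 residual degrees of freedom). P-values were adjusted by Benjamini-Hochberg over 15096 genes, with a threshold of 0.05. Intervals are 95%. CPM is TMM-scaled, and correlations used log2 CPM with a prior count of 2. The fit was tested on simulated data. Symbols came from GENCODE M21. Alternatives were RLE size factors, DESeq2 1.42.0, limma-voom (limma 3.58.1), no filter, fewer groups, a replicate block and leaving out each library. No libraries were duplicates.

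The members, the 17 gene lists (other peripheral myelin genes, Schwann lineage and identity, Egr2 regulators and partners, ErbB3 pathway, repair Schwann cell genes, basal lamina and adhesion, and 11 lists of other cell types) and the rules were chosen with earlier results of these data known. Named were all 9 members, Sox10, S100b and Mbp, up to 4 genes per list and comparison with the smallest p among those past the threshold, and the 3 genes with the profile most like each member. Some genes that this rule names are not reported here.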

Additional observations from a re-analysis of the deposited data

Results flagged for a closer look

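Over the 9 genes and the 3 other glial genes, 46 groups of 4 libraries were examined for a library far from the others of its group, and 4 stood out. Chance flags about 1 in 20 groups when values are normally distributed. That rate does not hold for Pmp2, where 1 count among libraries at 0 is always flagged. Prx stood at 2 CPM in control replicate 2 of day 5, where the other libraries of that group had 0 to 0.178 CPM. Mal stood at 550 CPM in control replicate 2 of day 10, above 399 to 420 CPM in the others. Pmp2 stood at 0.0759 CPM in control replicate 2 of day 10 and at 0.0727 CPM in control replicate 6 of day 5, which is 1 count each among libraries at 0.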

How the results depend on the processing

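Of the members' values when a library was left out, 351 kept direction and side of the threshold, 5 newly passed, 6 no longer passed and 22 reversed. Under the other settings 182 were kept, 11 newly passed, 1 no longer passed and 9 reversed. Prx and Ncmap rest on 182 and 151 counts over 16 libraries.

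Members called between the days in control were 4 by DESeq2 and 5 by limma-voom, and 2 to 5 without 1 library. Egr2 passed there with RLE size factors (log2 1.14, adjusted p 0.0493 by edgeR) and in exercise did not pass without the filter (1.28, 0.0686). Genes called between exercise and control at day 10 were 216 by DESeq2, 0 with only the groups compared and 0 to 133 without 1 library (0 without exercise replicates 17 or 19 or control replicates 2 or 3, 133 without exercise replicate 18). At day 5 they were 80 by DESeq2 and 0 to 1 without 1 library. Genes called between the days in exercise were 856 with only the groups compared and 975 (without exercise replicate 7 of day 5) to 1839 without 1 library, and in control 1301 to 1594. The interaction called 9 genes by DESeq2 and 0 to 1 without 1 library. The cause was not tested.

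Some log2 differences changed sign, for a cause that was not tested. Prx at day 5 was 0.87 by limma-voom, and -1.02 to 1.70 without 1 library. Pmp22 at day 10 was -6.64e-05 with RLE, -0.0014 by DESeq2, -0.030 by limma-voom, -0.015 without the filter, -0.0086 with only the groups compared and -0.22 to 0.10 without 1 library. Pmp22 between the days in exercise was -0.016 by limma-voom and -0.20 to 0.11 without 1 library. Egr2 in the interaction was -0.11 by limma-voom and -0.31 to 0.46 without 1 library. Without 1 library, the day 5 difference ran from -0.024 to 0.16 for Mal, -0.57 to 0.19 for Egr2 and -0.19 to 0.087 for Cdh19, and the day 10 difference from -0.22 to 0.048 for Egr2. The day difference in exercise ran from -0.10 to 0.73 for Ncmap and -0.14 to 0.16 for Cdh19, and the interaction from -2.76 to 0.35 for Prx and -0.73 to 0.34 for Ncmap.

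Arms shared only 2 replicate numbers at day 5 and the days 2 in control, and the deviations of same-numbered libraries correlated at -0.029 to 0.069. These correlations give no sign that the numbers pair libraries, but they are too few to exclude it. With a replicate block, 5 members were called between the days in control, with Prx (2.39, adjusted p 0.0301), Egr2 (1.27, 0.0215) and Cdh19 (0.58, 0.0418) added by edgeR, 0 members and 0 genes were called at day 5, where Prx was 0.28, and 1657 genes were called between the days in control. No paired analysis was possible because no numbers are shared for exercise against control at day 10 or the days in exercise.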
